A study of Mus musculus with 50 samples.

Results

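Genes of the vesicle trafficking machinery, namely tethers, SNAREs, retromer and their relatives, were described in the testis and spinal cord of wobbler mice. They were taken by symbol: every array spot whose platform gene symbol begins with Vps, Snx, Stx, Vamp, Vti1, Cog and a digit, Golga, Trappc or Exoc, other than Snx18. This gave 134 spots of 88 genes, out of 20355 spots, of which 14030 carry 1 gene symbol and together name 9930 genes. Wobbler mice are homozygous for the recessive wr allele of Vps54 (wr/wr), and males of this line fail to form a normal acrosome while motor neurons are lost. The compared samples were 10 testis RNAs, each from 1 wr/wr mouse and measured on 4 arrays, with 1 wild-type testis pool as their common control, and 3 wr/wr spinal cord RNAs with 1 wild-type cord pool as theirs. Of the cord RNAs, pool1 and pool2 each hold 4 wr/wr mice, while mouse 5995 gave a cord RNA of its own. These 9 mice are all among the 10 testis mice. Neither the background strain nor the age is given in the sources used here, and the wild-type pools hold 10 mice by the sample labels but 6 by the labelling protocol.

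Membrane tethers are long proteins or multisubunit complexes that catch an incoming vesicle at its target membrane, and SNARE proteins on both membranes then zip together and fuse them. GARP, built from Vps51, Vps52, Vps53 and Vps54, tethers vesicles that return from endosomes to the trans-Golgi network, where they fuse through the SNAREs Stx6, Stx16, Vti1a and Vamp4. Retromer (Vps26, Vps29 and Vps35) and the sorting nexins load cargo into those carriers on the endosome, while COG, the golgins, TRAPP and the exocyst tether vesicles at the Golgi and the plasma membrane. The acrosome of the sperm cell is built by fusion of Golgi-derived vesicles.

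All values are log2 ratios, read as wr/wr over wild type and centred on each array's median, so that 0 is the array's middle and not an absolute level. Arrays with the wr/wr RNA in Cy5 and in Cy3 were averaged separately and then together, and each RNA counts once. That the ratio is wr/wr over wild type, and that the log base is 2, are readings of the values that no source used here states. A spot was called when limma's test of the mean ratio against 0 gave a Benjamini-Hochberg adjusted p under 0.05 over all spots of the tissue. Since 1 pool stands for the wild type of each tissue, variation between wild-type mice does not enter this test. In a whole organ, fewer cells of a type and less RNA per cell cannot be told apart. The array held 0 spots named for Vps54, so the mutated subunit itself gave no check of the labels, and ratios cannot show whether a tissue expresses its defining genes. A testis array gave values for 19070 to 20189 spots, and a cord array for 18338 to 20034. In testis mice 5905, 6065 and 5997, and in all 3 cord RNAs, the Cy5 and Cy3 means of the same RNA had a Spearman correlation below 0 across spots, and Pearson's r was below 0 in testis mice 5906 and 6163 as well.

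Over the testis, 14 of 134 member spots were called (10.4%), against 12.3% of all spots, so the share lay near the background. Higher spots numbered 10 (7.28% of all spots were called higher) and lower spots 4 (5.06% of all spots were called lower). The changes were small, from 1.09-fold for Vps41 to 1.22-fold for Snx14 among the higher spots, and from 0.822-fold for Exoc6b to 0.908-fold for Snx30 among the lower ones. The median ratio of the members was 0.02 and that of all spots -0.01, with 62.7% of member spots above 0 against 46.6% of all spots. With the ratio read as Cy5 over Cy3 the share turned to 41% of member spots, against 45.9% of all spots. In each of the 10 mice the member median lay above the median of all spots, but the 10 ratios share 1 wild-type pool. The count depended on single mice, with 4 calls when mouse 6493 was left out, 5 for mouse 5907, 5 for 6335, 6 for 5906, 7 for 6069 and 9 for 5995. Over all spots the called share fell too, to 3.71% without mouse 6493, 6.13% without 5907 and 6.09% without 6335. It was 7.61% without 5906, 4.93% without 6069 and 7.38% without 5995. Leaving out mice 5905, 5997 and 6065 gave 16 calls, 11 of them among the 14, with 13% of all spots called. Cog4, Snx30, Vps28 and Vps72 were called in all 10 fits that left out 1 mouse. Of the other called spots, Vamp1 was called in 8 of these fits, Exoc3 and Stx18 in 6 each, and Snx29 and Trappc11 in 4 each. Snx14, Snx25, Vps25 and Vps41 were called in 2 each, and Exoc6b in 1.

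**Figure D1:**
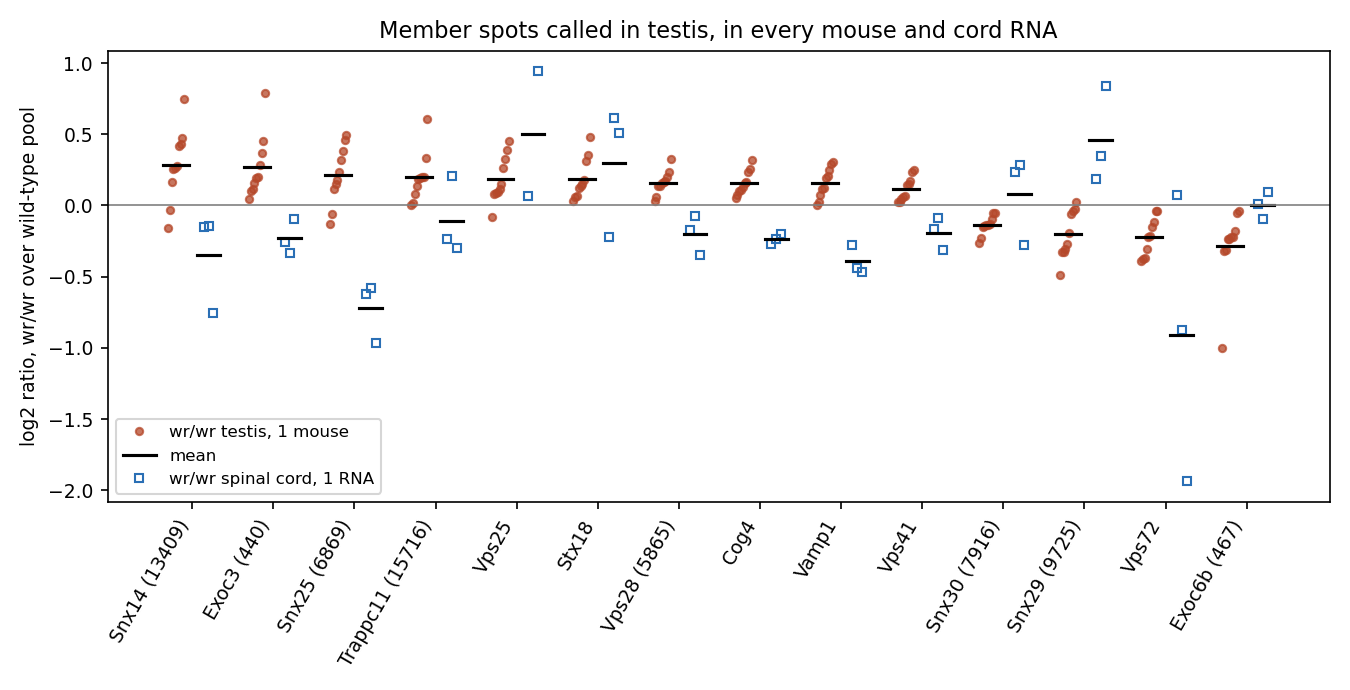
Log2 ratios of wr/wr over the wild-type pool (vertical axis) for the 14 member spots called in testis, with each testis mouse as a filled circle, each cord RNA as an open square to its right and the mean as a bar. The spot number follows a gene that has more than 1 spot. The testis points of 10 of the 14 spots lie wholly on one side of 0, which being called favours, against 6.48% of all array spots. Of the 10 higher spots 9 were tested in the cord, and the cord points of 7 of these lie wholly below 0. Over the array 41.7% of 1363 such spots did so.

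Of the GARP complex the array measured Vps52 and Vps53, and neither was called in testis. By limma 2 of their 4 spots had an unadjusted p under 0.05, as did 30.3% of all spots. Vps52 ran from -0.02 through a median of 0.09 to 0.18 over the testis mice, a mean of 0.09 ± 0.07 (SD, n = 10) with 8 of 10 mice above 0 and an adjusted p of 0.0754. In the cord it was at -0.12 in pool1, -0.76 in pool2 and -0.35 in mouse 5995. All cord RNAs were thus below 0 and all but 2 mice were above 0 in the testis. The fit over both tissues, with 1 shared spread and no pairing, put testis above cord by 0.50 (adjusted p = 0.00804 by limma). That difference was 0.20 with the Cy5 arrays alone (adjusted p = 0.26 by limma) and 0.80 with the Cy3 arrays alone (adjusted p = 0.00327 by limma). With the ratio read as Cy5 over Cy3 it was -0.30 (adjusted p = 0.0303 by limma). No member spot was called with a spread for each tissue, or in a paired fit of each cord RNA with the testes of its own mice. The Vps52 cord mean was -0.14 on the Cy5 arrays and -0.68 on the Cy3 arrays. Vps53 had 3 spots that did not move alike. Spot 12294 averaged 0.18 ± 0.18 in the testis (adjusted p = 0.0577), spot 3228 averaged 0.08 ± 0.12 and spot 11936 averaged -0.06 ± 0.35. In the cord spot 12294 was at 0.40, 2.62 and 0.68 in pool1, pool2 and mouse 5995, and its mean of 1.23 came from the Cy3 arrays (2.40) and not the Cy5 arrays (0.06). The remaining Vps53 cord means were 0.20 and 0.38. For spot 12294 the testis ratio was below the cord ratio by the fit over both tissues (-1.05, adjusted p = 0.0383), which is the opposite direction to Vps52. That call held in 5 of the 13 fits that left out 1 RNA, and without cord pool2 the difference was -0.36 (adjusted p = 0.0893).

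The SNAREs that work with GARP were measured on 10 spots of 3 genes, and 0 of them were called in testis by limma. An unadjusted p under 0.05 was reached by 2 of these spots, and by 30.3% of all spots. Stx16, the Qa SNARE of that complex, averaged 0.11 ± 0.20 in the testis. Stx6 gave 0.07 ± 0.18, 0.01 ± 0.16 and -0.09 ± 0.13 on its 3 spots. Vti1a, another SNARE of that complex, had 6 spots with testis means between -0.18 and 0.02, of which 5 were below 0 and none was called. Its spot 12770 had the lowest testis mean, -0.18 ± 0.24 (adjusted p = 0.126), and cord values of 0.30 in pool1, 0.37 in pool2 and 1.13 in mouse 5995. Every cord RNA was above 0 there. By the fit with 1 shared spread the testis ratio was below the cord ratio (-0.78, adjusted p = 0.0122 by limma). It was not called with a spread for each tissue or in the paired fit. Without the cord of mouse 5995 the difference was -0.51 (adjusted p = 0.063 by limma). Of the other 5 Vti1a spots, 4 were tested in the cord, with means between -0.18 and 0.16, and did not pass that test.

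Retromer and its commander relatives, which recycle cargo out of endosomes, were measured on 8 spots of 5 genes with 0 calls in testis by limma. An unadjusted p under 0.05 was reached by 3 of these spots, and by 30.3% of all spots. Vps26a, a core subunit of retromer, gave similar means on both of its spots, 0.12 ± 0.15 and 0.13 ± 0.15 in the testis (adjusted p = 0.126 and 0.0999). Its paralog Vps26b averaged 0.01 ± 0.06 and -0.05 ± 0.09, and Vps29 averaged 0.05 ± 0.11. Among the commander subunits, Vps26c averaged -0.08 ± 0.39 and Vps35l -0.01 ± 0.16 and -0.21 ± 0.29 on its 2 spots. In the cord all 8 means were below 0, from -0.32 for Vps26b to -0.06, yet only 2 of the 8 spots were below 0 in all 3 RNAs. The shared sign came from the Cy3 arrays, on which 8 of 8 were below 0 (median -0.19), while on the Cy5 arrays 5 of 8 were above 0 (median 0.03). With the ratio read as Cy5 over Cy3, 7 of the 8 were above 0. By limma 0 of these spots passed the tissue test, with 0 at an unadjusted p under 0.05.

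Sorting nexins bind phosphoinositides on endosomes through a PX domain, and with 31 spots of 21 genes they formed the largest family. In the testis 2 of their spots rose and 2 fell (12.9% called, against 12.3% of all spots), and their median was 0.03. Snx14, an endoplasmic reticulum protein that contacts lipid droplets, ran from -0.16 through 0.27 to 0.75 on spot 13409 (0.29 ± 0.26, adjusted p = 0.0374). Its other spot lay lower, at 0.10 ± 0.10 (adjusted p = 0.0855), and 8 of 10 mice were above 0 on each. Snx25, a relative of Snx14, ran from -0.13 through 0.21 to 0.49 on spot 6869 (0.21 ± 0.21, adjusted p = 0.0481). On spot 18246 it averaged -0.09 ± 0.10 (adjusted p = 0.123), the opposite direction. Snx30, a nexin of the BAR-domain branch, fell on spot 7916 in all 10 mice, from -0.27 through -0.14 to -0.05 (-0.14 ± 0.07, adjusted p = 0.0187). That mean came mostly from the Cy5 arrays (-0.26), with -0.02 on the Cy3 arrays. Its spots 3382 and 5874 gave -0.06 ± 0.09 and 0.07 ± 0.10. Snx29 fell on spot 9725, from -0.49 through -0.23 to 0.03 (-0.20 ± 0.17, adjusted p = 0.0347), beside -0.07 ± 0.13 and 0.03 ± 0.34 on its other spots. The retromer partners Snx5 (0.12 ± 0.10, adjusted p = 0.0512) and Snx3 (0.12 ± 0.16, adjusted p = 0.136) were not called, and Snx1 and Snx2 averaged 0.00 ± 0.14 and -0.00 ± 0.10.

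Among the Golgi tethers, COG had 1 called spot of 4 (25%, against 12.3% of all spots). Cog4, a core subunit of this tether for vesicles moving within the Golgi, lay between 0.05 and 0.32 in the 10 testes with a median of 0.15 (0.16 ± 0.09, adjusted p = 0.0181), above 0 in both dyes (0.13 in Cy5 and 0.19 in Cy3). The other COG subunits with spots averaged 0.03 (Cog1), 0.06 (Cog2) and 0.08 (Cog8) in the testis and were not called. TRAPP, a tether and Rab exchange factor of the early secretory pathway, had 15 spots with 1 higher and 0 lower (6.67% called), and a median of -0.05. Trappc11 rose in all 10 mice on spot 15716, from 0.01 through 0.19 to 0.61 (0.20 ± 0.17, adjusted p = 0.039), while its spot 7229 averaged -0.03 ± 0.11. The 5 golgin spots had no call, with Golga3 at 0.09 ± 0.10.

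Exocyst subunits, which tether secretory vesicles at the plasma membrane, had 1 of 11 spots higher and 1 lower (18.2% called, against 12.3% of all spots). Exoc3 lay between 0.04 and 0.79 on spot 440 with a median of 0.20 (0.27 ± 0.22, adjusted p = 0.0283), and its spots 4747 and 18605 averaged -0.02 ± 0.22 and 0.08 ± 0.12. Exoc6b was below 0 in all 10 mice on spot 467, from -0.998 through -0.23 to -0.04 (-0.28 ± 0.27, adjusted p = 0.0422), with mouse 5995 far below the rest. Its spot 7331 averaged 0.09 ± 0.21. The other 6 exocyst spots were not called.

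Syntaxins and VAMPs beyond the GARP set gave 2 calls. Counting the GARP set, 6.67% of 15 Golgi and endosome syntaxin spots were called. So were 9.09% of 11 VAMP and Vti1 spots, against 12.3% of all spots. Stx18, a SNARE of the endoplasmic reticulum that receives vesicles from the Golgi, was above 0 in all 10 testes, from 0.03 through 0.14 to 0.48 (0.19 ± 0.15, adjusted p = 0.0297). Vamp1, a synaptobrevin of secretory vesicles, lay between 0.00 and 0.31 with a median of 0.16 (0.16 ± 0.11, adjusted p = 0.026). The Vamp1 mean came from the Cy5 arrays (0.33) and not the Cy3 arrays (-0.01). The other 13 called spots had the same sign in both dyes, which a call on the mean of both dyes favours. Vamp3 (0.18 ± 0.17, adjusted p = 0.0515) and Vamp5 (0.17 ± 0.17, adjusted p = 0.0565) lay just outside the threshold, and the 3 plasma membrane syntaxins averaged between -0.04 and 0.12.

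HOPS and ESCRT subunits act on the route to the lysosome. Of the 8 spots of HOPS, CORVET and their SM proteins, 7 had a testis mean above 0 (87.5%, against 46.6% of all spots) and 1 was called (12.5%, against 12.3%). That spot was Vps41, the HOPS subunit that also works with the AP-3 coat, with 0.02 through 0.11 to 0.25 over the mice (0.12 ± 0.08, adjusted p = 0.0386). Most of its mean came from the Cy3 arrays (0.21), with 0.02 on the Cy5 arrays. Of the 13 ESCRT spots, 11 were above 0 (84.6%) and 2 were called (15.4%). On the Cy5 arrays alone 5 of the 8 and 8 of the 13 were above 0, and on the Cy3 arrays alone 8 and 11. With the ratio read as Cy5 over Cy3, 1 of the 8 and 6 of the 13 were above 0. Vps28, a subunit of ESCRT-I, ran from 0.03 through 0.16 to 0.32 on spot 5865, with the same mean of 0.16 in both dyes (0.16 ± 0.08, adjusted p = 0.0177). Its spot 19044 averaged 0.07 ± 0.09 (adjusted p = 0.203). Vps25 of ESCRT-II ran from -0.08 through 0.13 to 0.45 (0.19 ± 0.16, adjusted p = 0.0389). The smallest p of all members belonged to Vps72 (-0.22 ± 0.14, adjusted p = 0.0174, below 0 in all 10 mice), which shares the name but is a chromatin protein that handles histone H2A.Z and not a trafficking protein.

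**Figure D2:**
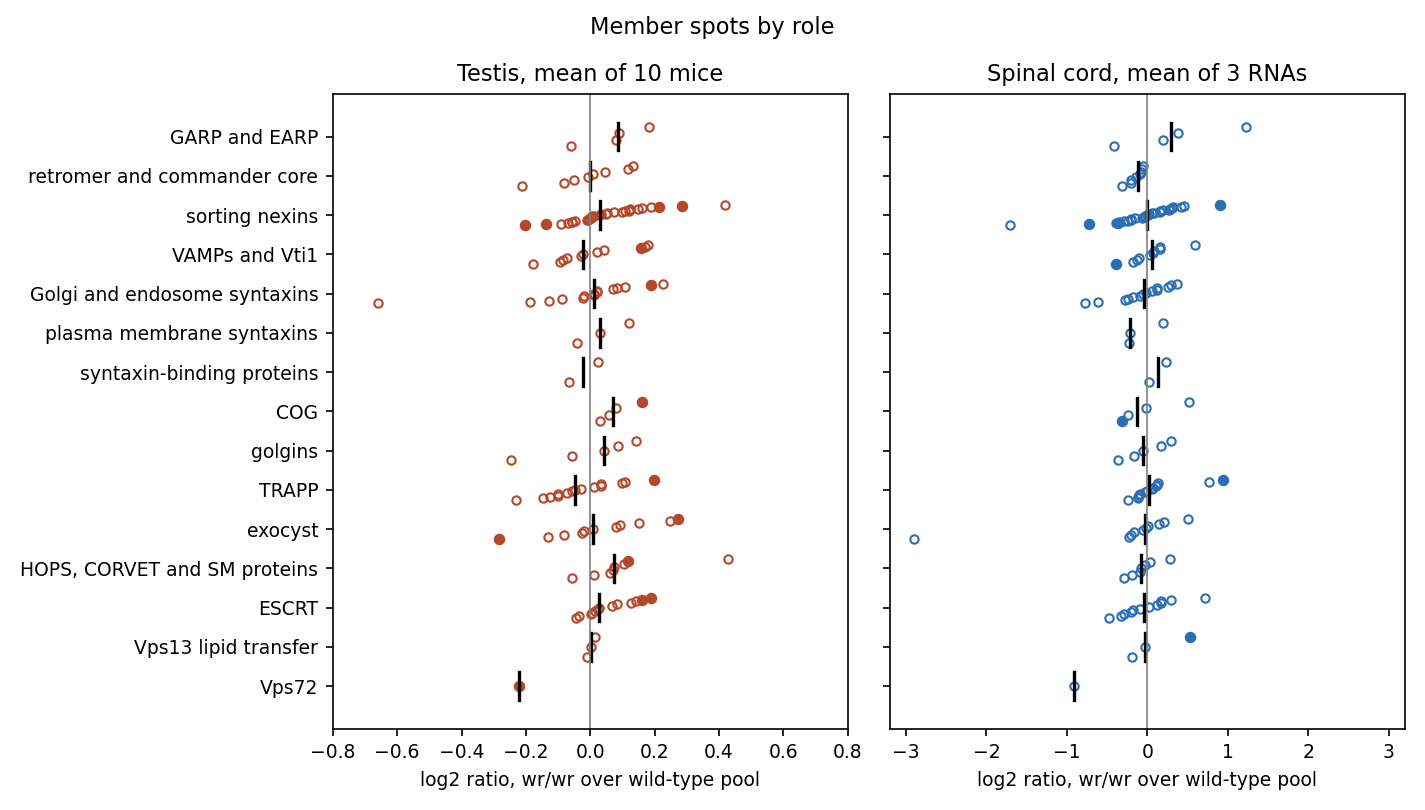
Mean log2 ratio of wr/wr over wild type for every tested member spot by role, in testis (left, 10 mice) and spinal cord (right, 3 RNAs, on a wider axis). Filled circles are called in testis (adjusted p under 0.05) and have an unadjusted p under 0.05 in the cord, and black bars are the median of each role. In testis 11 of 13 ESCRT spots lie right of 0, against 46.6% of all array spots, with 8 of 13 above 0 on the Cy5 arrays and 11 on the Cy3 arrays. In the cord the 8 retromer and commander spots lie left of 0, though 5 of them were above 0 on the Cy5 arrays.

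The starts of member genes were searched for the E-box CACGTG, which several basic helix-loop-helix factors bind, and for its longer palindrome, CACGTG with GT before it and AC after it, the CLEAR-type element known from lysosomal genes and the factor TFEB. Both motifs read the same on both strands, and every longer palindrome also counts as an E-box. Windows of 300 bases, 250 before to 50 after the start, were taken from RefSeq (GRCm38.p6) and existed for 70 of the 88 genes, as 87 windows that partly overlap. CACGTG stood in 14 of the 87 windows (16.1%, from 10 genes) and in 7.15% of all 32851 windows. The palindrome stood in 4 windows (4.6%) of Vps16, Vps26a and Vps33a and in 0.326% of all windows. The cyclic AMP response element TGACGTCA stood in 1 member window (1.15%) and in 1.79% of all windows. No gene with CACGTG was called in testis: of the 14 genes called in testis 12 had a window, and 0 of those held CACGTG. The 3 genes with the palindrome are shown because they belong to retromer and HOPS, with CACGTG and the longer palindrome in capitals. The Vps16 window lies at chr2:130424070-130424369 (plus strand), the Vps26a window at chr10:62486549-62486848 (minus strand) and the Vps33a window at chr5:123572966-123573265 (minus strand).
Vps16: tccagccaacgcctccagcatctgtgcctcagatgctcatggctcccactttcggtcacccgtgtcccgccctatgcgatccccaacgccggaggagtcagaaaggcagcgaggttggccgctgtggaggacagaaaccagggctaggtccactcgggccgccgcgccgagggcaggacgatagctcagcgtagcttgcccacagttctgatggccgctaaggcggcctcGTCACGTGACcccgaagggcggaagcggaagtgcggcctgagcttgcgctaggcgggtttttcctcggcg
Vps26a: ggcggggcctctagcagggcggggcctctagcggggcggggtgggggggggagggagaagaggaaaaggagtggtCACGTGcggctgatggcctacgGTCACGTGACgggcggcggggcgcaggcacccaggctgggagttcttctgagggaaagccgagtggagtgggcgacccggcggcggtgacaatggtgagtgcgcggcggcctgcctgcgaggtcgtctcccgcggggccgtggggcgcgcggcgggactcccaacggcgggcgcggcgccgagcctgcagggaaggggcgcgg
Vps33a: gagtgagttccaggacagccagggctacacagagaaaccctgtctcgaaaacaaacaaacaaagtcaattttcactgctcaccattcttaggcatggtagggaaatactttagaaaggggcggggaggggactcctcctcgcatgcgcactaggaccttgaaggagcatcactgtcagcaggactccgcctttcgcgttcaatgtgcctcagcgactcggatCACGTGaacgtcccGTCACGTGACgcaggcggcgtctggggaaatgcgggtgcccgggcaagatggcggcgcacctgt

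In the testis Vps16, a HOPS and CORVET core subunit, averaged 0.08 ± 0.22, and its partner Vps33a averaged 0.07 ± 0.17 on spot 16878. The other Vps33a spot held 2 of the very large values described below, ran from -0.99 to 3.93 and averaged 0.43 ± 1.40. With Vps26a above, the 3 genes with the palindrome had testis means above 0 on all 5 of their spots and no call. Above 0 were 62.7% of all member spots and 46.6% of all spots. A link between the motif and the ratios was not tested.

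In the spinal cord 0 of 125 tested member spots were called by limma, and 0% of all 17055 spots (smallest adjusted p 0.542). At an unadjusted p under 0.05 there were 7 member spots (5.6%), against 8.65% of all spots, so no excess was seen. The members' median cord ratio was -0.03 against -0.003 for all spots, with 44% of member spots above 0 against 49.5%. The median SD over the 3 cord RNAs was 0.28 for members, against 0.15 over the 10 testes. The cord also differed in cell markers: 8 of 8 tested microglia spots were above 0 (0.12 to 1.43, median 0.65), 0 of 6 myelin spots were (-0.73 to -0.17, median -0.49) and 3 of 16 neuron spots were (-0.90 to 0.43, median -0.19). Their part in the members' cord ratios was not tested. In the testis 5 of 9 Sertoli cell spots rose (all 9 spots -0.16 to 0.72) and 3 of 7 Leydig cell spots fell (all 7 spots -1.16 to 0.25). Of the 5 spermatocyte spots 2 rose and 1 fell, and of the 16 spermatid spots 0 rose and 1 fell. The called shares were 55.6% for Sertoli, 42.9% for Leydig, 60% for spermatocyte and 6.25% for spermatid spots, against 12.3% of all spots, and their part in the members' testis ratios was likewise not tested.

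The members with the smallest unadjusted p in the cord are given as values. Trappc1, a core TRAPP subunit, was at 0.75 in pool1, 0.82 in pool2 and 1.25 in mouse 5995, a mean of 0.94 ± 0.27 (SD, n = 3, unadjusted p = 0.00399 by limma). Its Cy5 arrays gave -0.71 and its Cy3 arrays 2.59, so the RNAs agreed and the dyes did not. Snx25 was at -0.62, -0.58 and -0.96 on spot 6869 (-0.72 ± 0.21, unadjusted p = 0.00649 by limma), below 0 in both dyes (-0.53 in Cy5 and -0.91 in Cy3). This was the same spot that was higher in testis, and spot 18246 of Snx25 averaged 0.28 ± 0.29 in the cord. Snx10, a nexin of endosome and osteoclast function, was at 1.10, 0.45 and 1.16 on spot 18013, with like means in both dyes (0.88 in Cy5 and 0.92 in Cy3). Its spot 4726 averaged 0.02 ± 0.14.

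Vamp1 was at -0.27 in pool1, -0.44 in pool2 and -0.47 in mouse 5995 (-0.39 ± 0.10), and that mean came from the Cy3 arrays (-0.80) and not the Cy5 arrays (0.01). Cog2 was at -0.38, -0.33 and -0.24 (-0.31 ± 0.07) and below 0 in both dyes. Snx14 averaged -0.37 ± 0.14 and -0.35 ± 0.35 on its 2 spots, with -0.06 and -0.11 on the Cy5 arrays and -0.67 and -0.59 on the Cy3 arrays. Vps13a, a lipid transfer protein at membrane contacts, was at 0.59, 0.78 and 0.21 on spot 9009 and at -0.19, 0.36 and -0.73 on spot 4161. The mean of spot 9009 came from the Cy3 arrays (1.11) and not the Cy5 arrays (-0.06). Vps37b of ESCRT-I averaged 0.72 ± 0.57, Trappc10 on spot 1322 averaged 0.77 ± 0.69, Snx29 on spot 9725 averaged 0.46 ± 0.34 and Snx20, a nexin of leukocytes, averaged 0.30 ± 0.13. Vps37b was at 0.10 on the Cy5 arrays and 1.34 on the Cy3 arrays, and Snx20 at -0.004 and 0.61. In the same order Trappc10 was at 0.72 and 0.82, and Snx29 at 0.72 and 0.19. Of the 7 spots with an unadjusted p under 0.05, 4 had the same sign in both dyes.

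**Figure D3:**
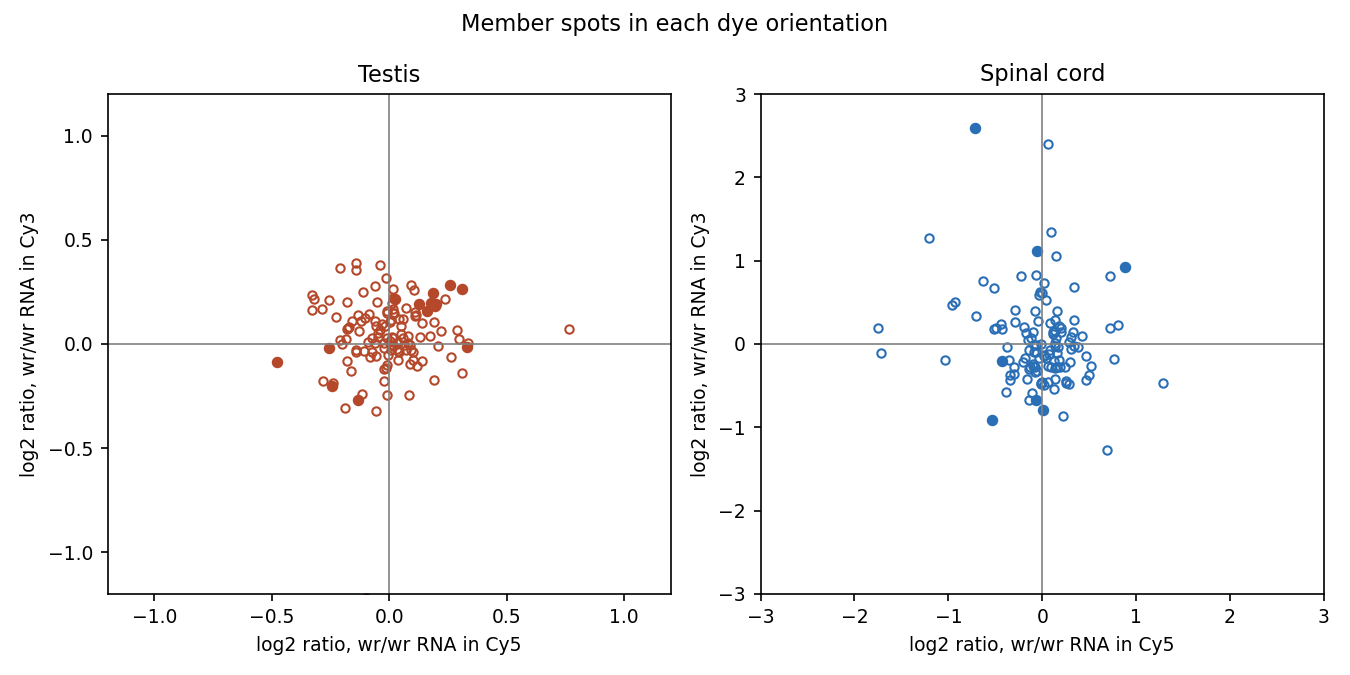
Mean log2 ratio of each tested member spot on the arrays with the wr/wr RNA in Cy5 (horizontal axis) and in Cy3 (vertical axis), in testis (left) and spinal cord (right, on a wider axis). Filled circles have an adjusted p under 0.05 in testis and an unadjusted p under 0.05 in the cord, and 3 testis and 2 cord spots lie outside the axes. Of the 14 called testis spots, 13 lie in a quadrant where both dyes have the same sign, which a call on the mean of both dyes favours. Of all member spots, 53% do so in testis.

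Dye orientation mattered for the members as it did for the array. The sign was the same in both orientations for 53% of member spots in testis, against 52.7% of all spots, and for 49.6% in the cord, against 45.7%. Some ratios were also set by values between 15.642 and 16.976 in size, of which the members held 10, on 8 spots. Over all spots, the 586 such values from arrays with the wr/wr RNA in Cy5 were all positive and the 886 from the opposite orientation all negative. They set the cord means of Exoc2 (-2.91 ± 5.16, with -8.73 in mouse 5995) and Snx16 (-1.71 ± 2.59, with -4.71 in pool2). In the testis, Trappc1 was at -4.22 in mouse 5905 and between 0.30 and 0.62 in the other 7 mice with values, and its mean was -0.13 ± 1.66 with mouse 5905 and 0.46 without it.

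The testis ratio and the cord ratio of the wr/wr mice were compared directly in 1 fit over the 13 RNAs. The fit called 23 of 125 member spots (18.4%, against 21.2% of all spots), of 19 genes. Testis was above cord for 15 spots (10.8% of all spots were called that way) and below it for 8 (10.4% of all spots). Of the 23 spots, 21 had means of opposite sign in the organs, which selection on a large difference by itself favours. Without that selection, 57.6% of member spots and 58.5% of all spots had means of opposite sign. These calls rest on 1 spread shared by both tissues, although the median spot varied 1.49 times as much over the cord RNAs. When each tissue had its own spread, 0 member spots were called by limma and 8 of all spots, with 24 member spots (19.2%) at an unadjusted p under 0.05, against 16.2% of all spots. In the paired fit, in which each cord RNA was set against the testes of its own mice (replicate block), 0 member spots were called by limma and 16 (12.8%) had an unadjusted p under 0.05, against 12.7% of all spots.

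**Figure D4:**
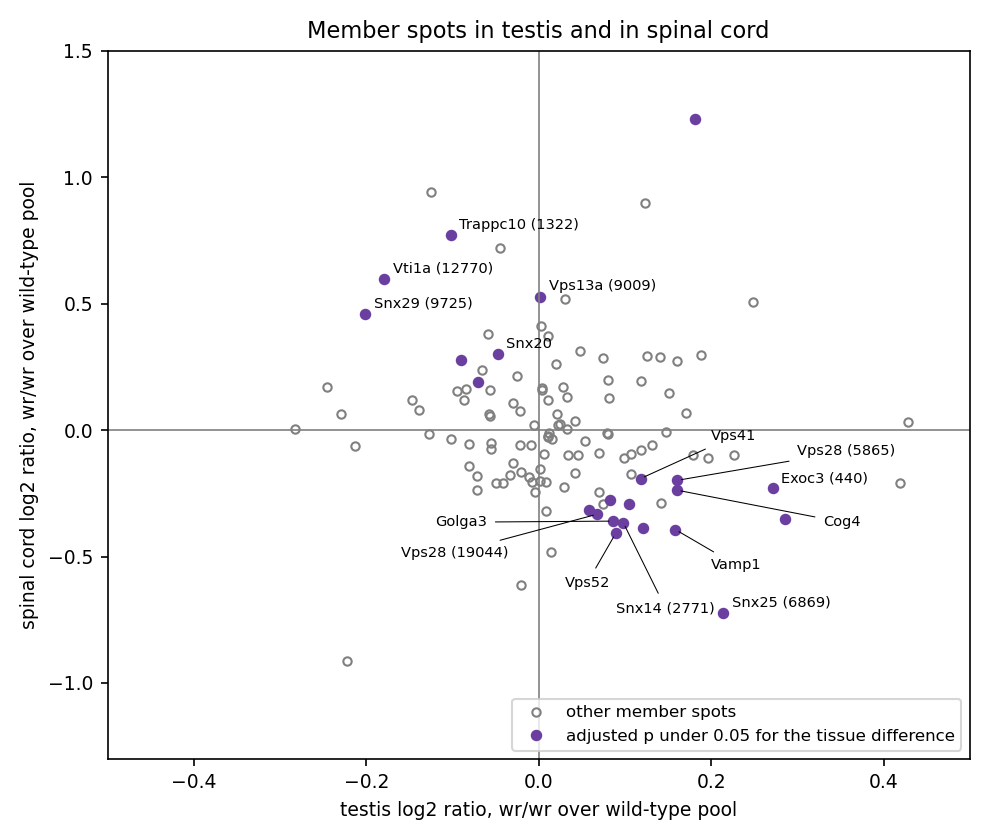
Mean log2 ratio of wr/wr over wild type in testis (horizontal axis, 10 mice) and in spinal cord (vertical axis, 3 RNAs) for the member spots tested in both. Purple circles have an adjusted p under 0.05 for testis minus cord with 1 shared spread, and 3 spots lie outside the axes. Of the called spots, 15 have the higher ratio in testis and lie at the lower right, and 8 have the lower ratio in testis, with Vps53 spot 12294 uppermost.

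Snx25 had the largest such difference on a called spot where testis was above cord, 0.94 on spot 6869 (adjusted p = 0.00161), and its spot 18246 went the other way (-0.37, adjusted p = 0.028). Vamp1 differed by 0.55 (adjusted p = 0.00185 by limma). Cog4 was at -0.27, -0.23 and -0.20 in the cord, a difference of 0.40 (adjusted p = 0.00369 by limma). For both, all 10 testes lay above all 3 cord RNAs, which selection on a called difference by itself favours. How often other spots separated in this way was not counted. Both spots of Snx14 (0.46 and 0.64) and both of Vps28 (0.36 and 0.40) passed in the same direction. Vps41 (0.31), Golga3 (0.45), Exoc3 on spot 440 (0.50), Vps39 of HOPS (0.40), Cog2 (0.37), Snx3 (0.51) and the recycling endosome syntaxin Stx12 on 1 of its spots (0.36) completed the list with testis above cord, beside Vps52. Testis was below cord for Trappc10 on spot 1322 (-0.87), Snx29 on spots 9725 and 3762 (-0.66 and -0.26), Vps13a on spot 9009 (-0.53) and Snx20 (-0.35), beside Vti1a, Vps53 and Snx25 on spot 18246. Cog4, Golga3, Vamp1, Vps52, Trappc10, Vps13a, Snx14 on spot 2771, Snx25 on spot 6869, Snx29 on spot 9725 and Vps28 on spot 5865 were called in all 13 fits that left out 1 RNA, but Snx29 on spot 3762 in 3 of them. Of the 10 spots higher in testis, 9 were tested in the cord, and of these 8 averaged below 0 and 7 were below 0 in all 3 RNAs. Over all spots the same shares were 72.5% and 41.7% of 1363.

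Several spots of the same gene often gave different answers, and all spots of a gene carry 1 accession here. Of the 32 member genes with several spots, 14 had the same sign on every spot in testis (43.8%, against 53.2% of all such genes). Of the 21 genes with exactly 2 spots tested, 12 agreed in sign (57.1%, against 59.8%). A called spot was present in 8 of the 32 genes, and in 0 of them was every spot called, against 74 of 753 over all genes. The correlation over mice between spots of a gene had a median of 0.123 for members and 0.0938 for all genes, as a description. The Vps28, Snx14 and Vps26a spots agreed in sign in both organs. The Snx25, Exoc6b, Trappc11, Exoc3, Snx29, Snx30 and Vps53 spots did not agree in testis. Among the 8 genes with a called spot, only the spots of Vps28 and of Snx14 agreed in sign in testis.

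**Figure D5:**
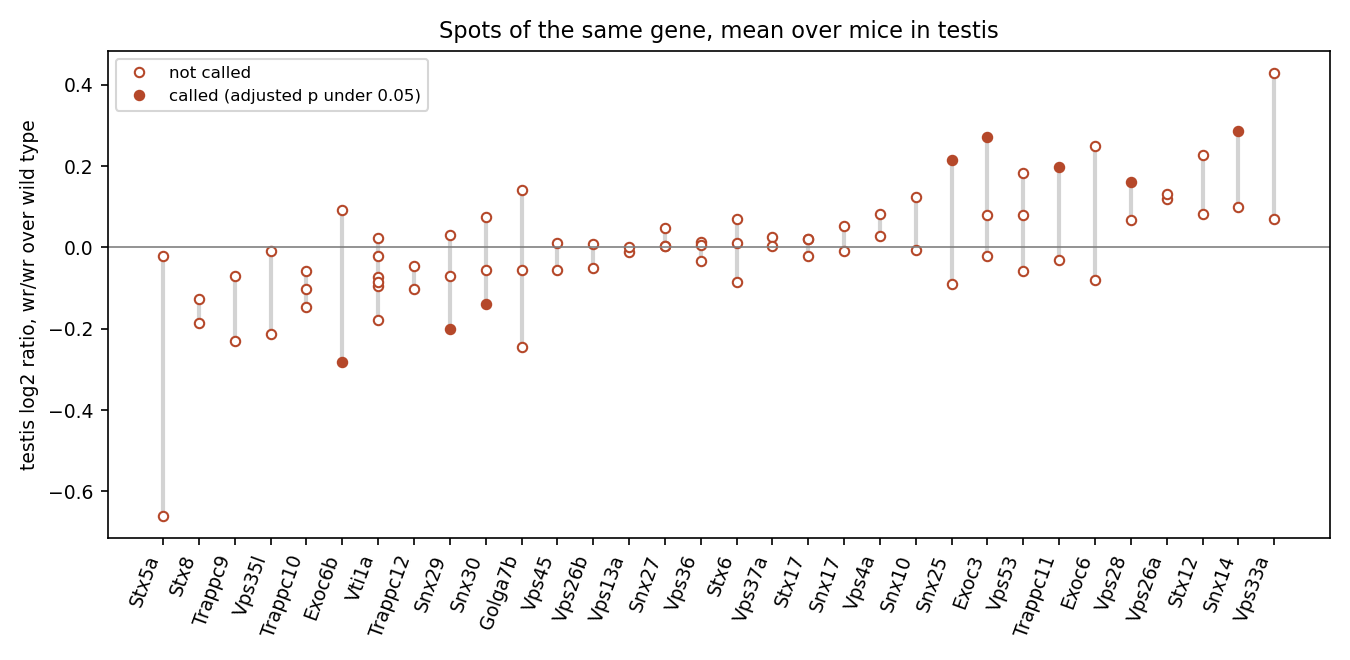
Mean testis log2 ratio of wr/wr over wild type for each spot of the 32 member genes with several spots, ordered by the gene's median, with a grey bar from its lowest to its highest spot. Filled circles are called spots. In the 8 genes with a called spot at least 1 other spot is open. Among them the bars of Snx25, Exoc6b, Trappc11, Exoc3, Snx29 and Snx30 cross 0, and only those of Snx14 and Vps28 do not.

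Other genes of the same routes were called in 6.67% to 14.7% of spots by list, around the 12.3% of all spots. Among other SNAREs and their recyclers, 2 of 28 spots rose in testis and 0 fell: Gosr2, a Golgi SNARE (0.16 ± 0.09, adjusted p = 0.0202), and Bet1l, a SNARE of retrograde traffic within the Golgi (0.20 ± 0.19, adjusted p = 0.0443). Further spots of these genes were not called, with 0.02 ± 0.36 and 0.46 ± 0.94 for Gosr2 and 0.05 ± 0.10 for Bet1l. Of the 15 spots of other Golgi and endoplasmic reticulum tethers, 1 rose, the Golgi stacking protein Gorasp1 on spot 18707 (0.16 ± 0.08, adjusted p = 0.0162), while its other spots averaged -0.08 and 0.02.

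The GTPases, partners and cargo of the endosome-to-Golgi route had 3 spots higher and 2 lower of 34. Rab6a, the Golgi GTPase whose active form binds GARP, lay between 0.03 and 0.67 on spot 19915 with a median of 0.28 (0.28 ± 0.20, adjusted p = 0.0209, above 0 in 10 of 10 mice). In the cord the same spot averaged -0.38 ± 0.13, and the Rab6a spot 17369 averaged 0.09 in testis and -0.09 in cord. Atp7a, a copper pump that cycles through the trans-Golgi network, rose (0.23 ± 0.13, adjusted p = 0.0154), as did the WASH complex subunit Washc3 on spot 4721 (0.16 ± 0.11, adjusted p = 0.0273). Washc3 on spot 11322 averaged 0.005 ± 0.15 in testis and was not called. Ehd1, a recycling endosome ATPase (-0.16 ± 0.09, adjusted p = 0.0196), and Rgp1, a subunit of the exchange factor that activates Rab6 (-0.23 ± 0.21, adjusted p = 0.0397), fell. The other ESCRT subunits had 2 higher spots of 19, Snf8 of ESCRT-II (0.18 ± 0.11, adjusted p = 0.0184) and Chmp7 of ESCRT-III (0.27 ± 0.27, adjusted p = 0.0461), and 16 of the 19 were above 0. In the cord these 4 lists had 0 calls by limma and 4 spots at an unadjusted p under 0.05, which were the sorting receptor Sort1 on spot 17763 (-0.39 ± 0.09, p = 0.0237 by limma), Rab6a (p = 0.0319 by limma), Rab6b on spot 17855 (-0.33 ± 0.11, p = 0.0462 by limma) and Bicd2 on spot 13814 (0.43 ± 0.26, p = 0.0465 by limma), whose spot 14253 averaged -0.29 ± 0.08.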

How the data were processed

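Total RNA was labelled with Cy3 or Cy5 and hybridised on 2-colour arrays, per the labels' protocols, on 40 testis and 10 cord arrays. The authors deposited 1 log2 ratio for each spot on each array. How background, normalization and filters were handled is not given in the sources used here. Nor are the direction and the base of the ratio, which were read from the labels' channel order and from the largest value of 16.976. No scanner intensities were used. Deposited medians per array ran from -0.091 to 0.058. With ratios alone, precision rests on the number of RNAs, and no pair of arrays was a duplicate (highest correlation 0.338).

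Arrays were centred on their median, the means of the Cy5 and of the Cy3 arrays of an RNA were averaged, and mean ratios were compared with 0 by lmFit and eBayes (limma 3.58.1, R 4.3.3) at a Benjamini-Hochberg adjusted p of 0.05, over all spots with both orientations in at least 8 testis mice (20218 spots) or all 3 cord RNAs (17055 spots). The tissue difference was fitted on 17005 spots with 1 spread, without pairing. The procedure was tested on simulated data. A spot's gene comes from the platform annotation. All 134 member symbols are current in RefSeq.

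Cord RNAs come from the same mice as testis RNAs. Deviations from the tissue means correlated across spots at 0.00555 for pool1, 0.0302 for pool2 and -0.00363 for mouse 5995 with the testes of their own mice.

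The members and all lists were chosen with earlier results of these data known. Named were all called testis members, the 12 cord members of smallest p, up to 15 called tissue differences, all GARP, GARP SNARE and retromer members, further spots of such genes, and, in the pathway lists, called spots and up to 3 spots of smallest p in each tissue. Other members are named to describe their group, with values and no selection by a test. Alternatives covered centring, scaling, dyes, direction, very large values, single arrays, averaging of spots, missing values, eBayes, pairing and leaving out RNAs.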

Additional observations from a re-analysis of the deposited data

Results flagged for a closer look

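In 6 of the 59 named spots 1 testis mouse lay far from the other mice, by Dixon's ratio of the gap to the range at its 95% value, and chance alone gives about 1 in 20. Mouse 6065 was the one in 4 of these: -1.10 for Vps26c (next mouse -0.25), -0.40 for Vps35l on spot 3950 (next -0.07), 1.31 for Trappc10 on spot 6644 (next 0.12) and 0.36 for Vti1a on spot 12117 (next 0.09). Mouse 5995 lay at -0.998 for Exoc6b on spot 467, where the next mouse lay at -0.32. Mouse 5905 lay at -4.22 for Trappc1, where the next mouse lay at 0.30.

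The testis and cord ratios differed by the fit with 1 shared spread for these named spots. Testis was above cord for Snx25 on spot 6869 (0.94), Vamp1 (0.55), Exoc3 on spot 440 (0.50), Vps52 (0.50), Snx14 on spot 2771 (0.46), Golga3 (0.45), Vps28 on spots 19044 and 5865 (0.40 and 0.36), Cog4 (0.40) and Vps41 (0.31). Testis was below cord for Trappc10 on spot 1322 (-0.87), Vti1a on spot 12770 (-0.78), Snx29 on spot 9725 (-0.66), Vps13a on spot 9009 (-0.53) and Snx20 (-0.35). None of them was called with a spread of its own for each tissue or in the paired fit.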

How the results depend on the processing

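The 14 testis calls became 24 with arrays fitted singly, 21 with the Cy5 arrays alone (8 of them among the 14), 5 with the Cy3 arrays alone (3 among the 14), 8 genes with spots averaged per gene and 3, none of them among the 14, with the ratio read as Cy5 over Cy3. The share of all spots called moved too, from 12.3% to 22.7%, 16.8%, 6.65%, 11.8% and 4.69% in the same order. Leaving out 1 mouse gave 4 to 15 calls, with 3.71% to 12.7% of all spots called. With the ratio read as Cy5 over Cy3 the members' median was -0.0174 in testis and 0.0416 in cord. The median stayed between 0.02 and 0.03 in testis when 1 mouse was left out, and between -0.04 and -0.03 in cord when 1 RNA was. The 0 cord calls became 2 with arrays fitted singly, with 2.12% of all spots called, and remained 0 without any 1 RNA. The 7 cord spots with an unadjusted p under 0.05 became 17 with arrays fitted singly, 20 with Cy3 alone and 4 with Cy5 alone. They became 4 with spots averaged, 13 with the ratio read as Cy5 over Cy3, and 4 to 6 without 1 RNA. In the same order the share of all spots went from 8.65% to 17.3%, 16%, 6.62%, 8.24% and 13.7%, and to between 2.79% and 6.24%. The 23 tissue differences became 0 in the paired fit (replicate block), 0 with a spread for each tissue, 3 with Cy5 alone and 28 with Cy3 alone (17 among the 23). They became 15 with spots averaged, 11 with the ratio read as Cy5 over Cy3 (3 among the 23), and 20 to 32 without 1 RNA. In the same order the share of all spots called went from 21.2% to 0%, 0.047%, 8.86%, 24.9%, 19.8% and 10.8%. Without 1 RNA it lay between 14.6% and 27.5%. The alternatives with a spread for each tissue and without mice 5905, 5997 and 6065 were chosen after seeing the data.

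Reading the ratio as Cy5 over Cy3 turned the testis sign of 27 of the 59 named spots, of which 6 were called, namely Cog4 (-0.0329), Exoc3 (-0.0131), Snx25 on spot 6869 (-0.0280), Snx29 on spot 9725 (0.0669), Stx18 (-0.008) and Vps41 (-0.10). Those not called include Vps52 (-0.032), Vps53 on spot 12294 (-0.08), Stx16 (-0.17), Vps26a on spot 9510 (-0.0223) and Stx6 on spot 6051 (-0.19, called under this reading). It turned 34 of 55 named tissue differences, 16 of them called, namely Cog4 (-0.26), Exoc3 (-0.24), Snx14 (-0.22 and -0.19), Snx20 (0.13), Snx25 (0.26 on spot 18246 and -0.22 on spot 6869), Trappc10 (0.12), Vamp1 (-0.23), Vps13a (0.53), Vps28 (-0.0456 and -0.26), Vps41 (-0.23), Vps52 (-0.30), Vps53 (1.09) and Vti1a (0.51), and that of Vps29 (-0.33), called only under this reading. Of the 16, Cog4, Vps13a and Vps52 were called in the turned direction (adjusted p = 0.0333, 0.00421 and 0.0303 by limma). The Cy5 arrays alone turned the testis sign of 10 of the 59 named spots, 0 of them among the 14 calls, Stx6 on spot 6051 included (-0.18), and the called tissue differences of Vps13a (0.00808) and Vps53 (0.0439), and the Cy3 arrays alone turned 16, of which Vamp1 was among the 14 (-0.0134), with Golga3 (-0.14), Snx14 on spot 2771 (-0.0123) and Vps26b on spot 5596 (-0.17) among the others. Averaging spots turned the Snx25 difference of spot 18246 (0.28). The testis mean of Trappc1 turned to 0.40 without very large values, 0.44 without mice 5905, 5997 and 6065 and 0.46 without mouse 5905. The causes were not tested. With 1 wild-type pool per tissue and 3 cord RNAs, the spread of the wild type is unknown and cord ratios are imprecise.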
